A study of Mus musculus with 4 samples.

Results

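The genes described here encode parts of the sweet and umami taste transduction pathway, and they were taken by name: Tas1r3, Tas1r1, Gng13, Itpr3, Plcb2 and Trpm4. All 6 had at least 1 transcript in the hypothalamic data, among 16339 genes in all. Hypothalamic RNA was sequenced from male C57BL/6 mice after 12 weeks on a Western diet (WD), made up of food with 60% fat and a 30% sucrose solution, which began at 8 weeks of age. Wild-type littermates (WT WD, 2 libraries) were compared with Tas1r3-/- mice (Tas1r3-/- WD, 2 libraries), which carry the Tas1r3tmCSZ allele and were backcrossed to C57BL/6. The allele is a conventional knockout, present in every tissue from birth, and every library came from WD-fed mice, so the values contain no comparison of diets. The comparison asks how the transcripts of the pathway differed between WD-fed mice with and without Tas1r3. The library labelled WT WD replicate 2 had few hypothalamic markers, as given below, so genotype and tissue sampled cannot be told apart in its values.

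Sweet and umami compounds are sensed on the tongue by receptor pairs that share 1 subunit. TAS1R3 pairs with TAS1R2 to sense sugars and sweeteners, and with TAS1R1 to sense amino acids such as glutamate. The receptors act through a heterotrimeric G protein whose gamma subunit is GNG13, and the released beta-gamma dimer activates phospholipase C beta 2 (PLCB2). The product of that enzyme, inositol trisphosphate (IP3), opens the type 3 IP3 receptor (ITPR3) and releases calcium from internal stores. Calcium then opens the cation channels TRPM5 and TRPM4, which depolarise the taste cell. Transcripts of the receptors have also been described outside the mouth, including in the gut, the pancreas and the hypothalamus.

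Tas1r3 (ENSMUSG00000029072) has 6 exons at chr4:155943725-155947819 of GRCm39, on the minus strand. Its only annotated transcript is 3523 bases long. The stretch of it that the study amplified by quantitative PCR is shown because it marks where in the targeted gene the mRNA was read by a second assay. This product of 157 bases runs from exon 2 into exon 3 (chr4:155947073-155947309, minus strand, intron left out) and is entirely coding. Capitals mark the primer sites.
Tas1r3 PCR product: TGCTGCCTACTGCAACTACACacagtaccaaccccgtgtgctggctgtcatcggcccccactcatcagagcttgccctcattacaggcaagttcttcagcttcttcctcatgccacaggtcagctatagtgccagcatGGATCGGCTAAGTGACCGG

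A second stretch is shown because, if the counting did not use strand, reads within its exons could come from either of 2 genes. Gng13 (ENSMUSG00000025739) lies on the plus strand of chromosome 17 from 25936145 to 25938380, and Chtf18 is transcribed from the opposite strand across its end. Of the 201 coding bases of Gng13 before the stop codon, 152 are also exon sequence of annotated Chtf18 transcripts (chr17:25937724-25938003, plus strand, intron left out). Capitals mark the 103 bases that lie in exon 3, and the lower-case bases lie in exon 2.
Gng13 coding bases shared with Chtf18: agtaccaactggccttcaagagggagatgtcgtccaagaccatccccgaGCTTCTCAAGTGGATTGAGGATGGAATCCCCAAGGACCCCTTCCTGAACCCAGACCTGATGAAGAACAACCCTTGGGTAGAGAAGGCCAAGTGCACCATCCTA

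The libraries held between 5874782 and 6273772 estimated counts of RefSeq transcripts. Counts were summed to genes and are given below as they are and as counts relative to library size (CPM) after scaling by edgeR's TMM method. Before the results, the tissue label was checked against marker genes. In the library labelled WT WD replicate 2, the 12 hypothalamic markers summed to 38.6 CPM, against 1344 to 1914 CPM in the other 3 libraries, and the defining transcription factor genes Nkx2-1 and Nr5a1 were at 0. The 8 thalamic markers summed to 2208 CPM there, against 335 to 515 CPM, and the 6 choroid plexus markers to 740 CPM, against 38.1 to 58.6 CPM. In Tas1r3-/- WD replicate 1, the 6 anterior pituitary markers summed to 1769 CPM, against 3.96 to 126 CPM. Pomc is in both the hypothalamic and the pituitary list. It was at 343 CPM in Tas1r3-/- WD replicate 1 and at 2.47 to 112 CPM in the other libraries. Each fold change of the 6 taste genes is therefore also given without WT WD replicate 2, and the part of these differences in the results was not tested.

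Among the 6 genes, Tas1r3 had the largest difference between the groups, with 1.18 CPM in Tas1r3-/- WD against 5.26 CPM in WT WD, and it did not pass the test adjusted over all genes. The other 5 genes lay within a factor of 2 of their WT WD mean. With p-values from the quasi-likelihood test of edgeR, adjusted by Benjamini-Hochberg, 0 of the 6 met the rule for differentially expressed genes (DEGs), an adjusted p under 0.05 with at least a 1.5-fold change. Of all 14344 genes tested, 0% met that rule, and 786 had an unadjusted p under 0.05. The smallest adjusted p of any gene was 0.748 by edgeR, and genes with unlike unadjusted p share that value. DESeq2 called 8 genes, or 0.0558% of those tested, and none of the 6, and it gave no adjusted p for Tas1r3 and Plcb2. At an unadjusted p under 0.05, 1 of the 6 genes was lower in Tas1r3-/- WD, namely Tas1r3, where 1.96% of all genes were. Both Tas1r3-/- WD libraries lay below both WT WD libraries for 1 of the 6 genes, Tas1r3, and above them for 1, Plcb2, where 18.9% of all genes lay below and 20.6% above. The median log2 fold change of the 6 was 0.03, beside -0.01 over all genes tested. All 6 genes passed the filter on low counts, and Tas1r3 passed it through its WT WD libraries. With 2 libraries against 2, an exact permutation test of a single gene cannot give a two-sided p below 0.33. No source used here says whether each library came from 1 mouse, so the p-values measure the spread between these libraries.

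**Figure D1:**
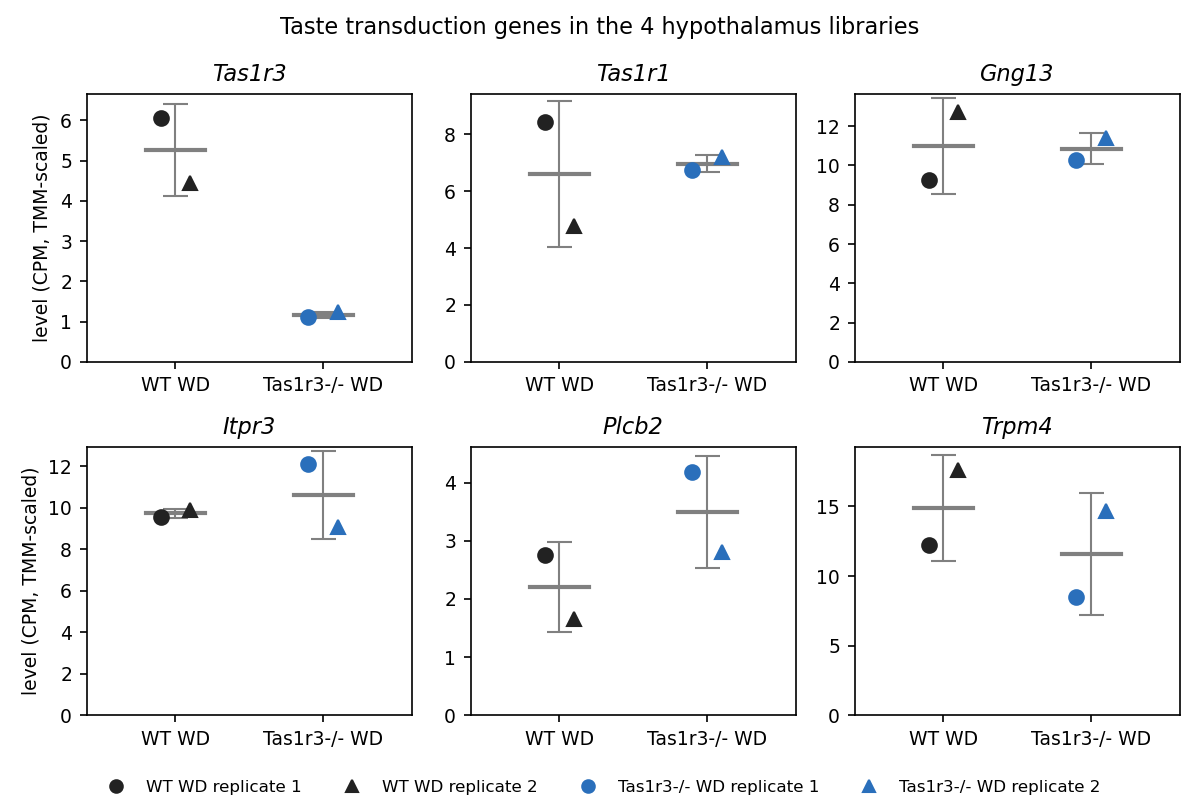
Level of each gene in CPM (vertical axes, from 0) in the 2 WT WD libraries (black) and the 2 Tas1r3-/- WD libraries (blue), with circles for replicate 1 and triangles for replicate 2. Grey lines mark the mean and bars the SD (n = 2). Tas1r3 stands at 4.45 to 6.07 CPM in WT WD and at 1.12 to 1.23 CPM in Tas1r3-/- WD, and the gap between the groups in Plcb2 is narrow.

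Tas1r3, the shared subunit of the sweet and umami receptors and the gene targeted in the knockout, was read first, since it checks the labels. Tas1r3 had 35.3 estimated counts in WT WD replicate 1 and 27 in replicate 2, and 7 and 7.01 in Tas1r3-/- WD replicates 1 and 2. The groups did not overlap, and both Tas1r3-/- WD libraries kept some counts. Exact Poisson 95% intervals, which cover counting error only, ran from 17.8 to 49 counts over the WT WD libraries and from 2.81 to 14.4 over the Tas1r3-/- WD libraries. In CPM, Tas1r3 was at 6.07 and 4.45 in WT WD against 1.12 and 1.23 in Tas1r3-/- WD, which gave means of 5.26 ± 1.14 CPM and 1.18 ± 0.0737 CPM (SD, n = 2). A gene at 0 could still hold up to 3 counts, or 0.485 to 0.524 CPM, and the remaining Tas1r3 counts lay above that limit. The log2 fold change was -2.13 (standard error 0.42, 95% interval -3.22 to -1.05), with an unadjusted p of 0.0041 and an adjusted p of 0.748 by edgeR.

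Summed over libraries and divided by the library totals, the Tas1r3 counts of Tas1r3-/- WD were 22.6% of those of WT WD (95% counting interval 11.7% to 41%). The fold change ranked 45th from the lowest of the 14344 genes tested and its unadjusted p ranked 21st. Without WT WD replicate 2 the log2 fold change was -2.34, with an edgeR adjusted p of 0.147. Without WT WD replicate 1, the WT library that carried the hypothalamic markers, it was -1.90 and Tas1r3 passed the rule with an edgeR adjusted p of 0.0453. In that fit 2148 of 14841 genes, or 14.5%, passed it too. Over all alternatives that gave one, the adjusted p of Tas1r3 ran from 0.0453 to 1, and the log2 fold change from -2.34 to -1.87.

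**Figure D2:**
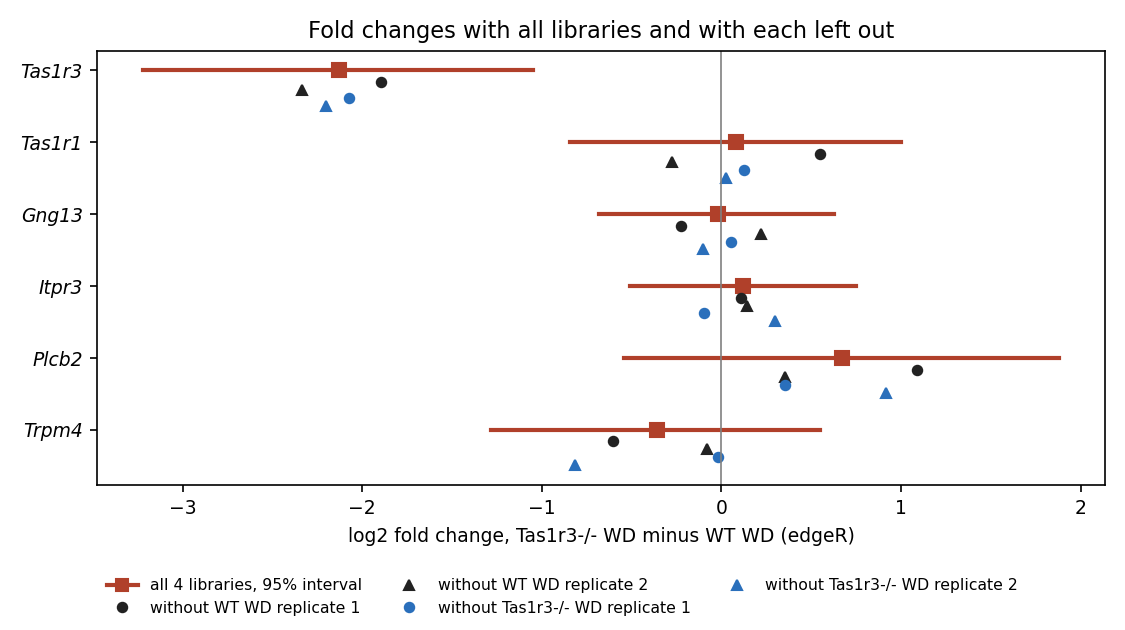
Log2 fold change of each gene (horizontal axis, Tas1r3-/- WD minus WT WD, edgeR) with all 4 libraries (red squares with 95% intervals) and with each library left out (circles and triangles). The Tas1r3 interval of -3.22 to -1.05 lies below 0, as do all 4 of its points, and the intervals of the other 5 genes contain 0.

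The position of Tas1r3 bears on what its counts hold. Dvl1, which encodes a cytoplasmic relay of Wnt signals, is transcribed from the opposite strand towards it. Of the 63 Dvl1 transcripts in the annotation, 4 run back through most of Tas1r3, and the annotated Dvl1 exons together cover 99.2% of the Tas1r3 exon bases, including 2574 coding bases. Of all 31-base words of the Tas1r3 transcript, 94.8% also occur in Dvl1 transcripts on the opposite strand. The exon 2 and exon 3 parts of the PCR product printed above lie within the covered stretch. The Dvl1 transcript with the largest overlap also holds the intron between them, so it does not contain the joined product. In the RefSeq table used for gene names, which is of the earlier build GRCm38.p6, the spans of the genes overlap by only 36 bases. Whether the counting used strand is not given in the sources used here. Without strand, reads within a covered Tas1r3 exon cannot be told apart from reads of such longer Dvl1 transcripts. The Dvl1 transcript with the largest overlap runs through Tas1r3 as a single exon, so reads across a Tas1r3 splice junction do not match it. Which bases of Tas1r3 the knockout allele lacks is not given in the sources either. Counts are given over the whole transcript, so the remaining 7 counts could not be placed within the gene.

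**Figure D3:**
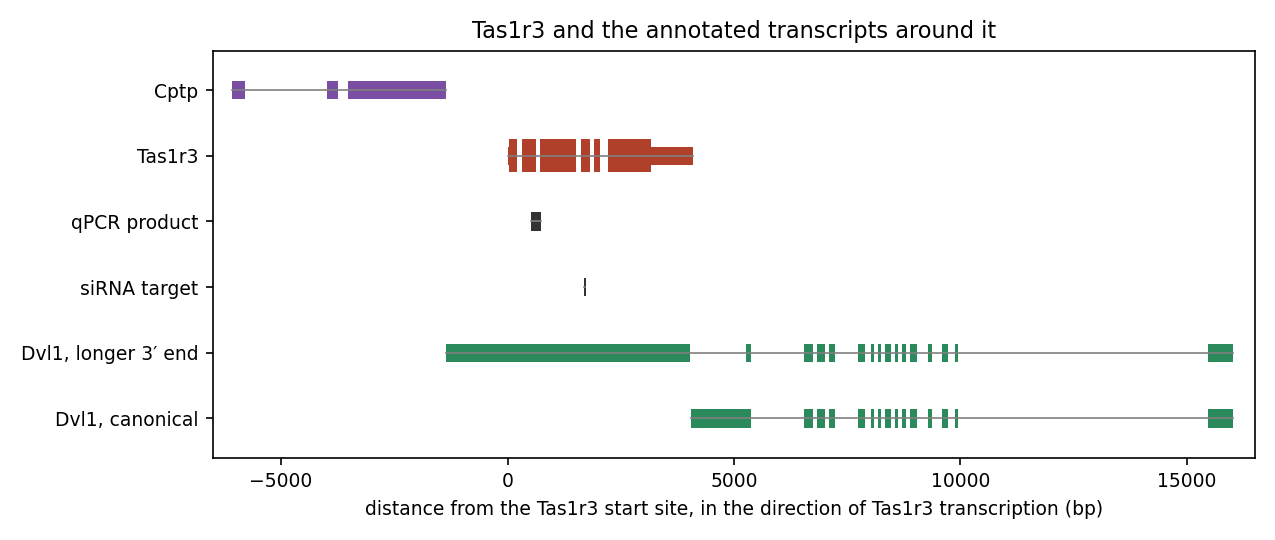
Annotated transcripts around Tas1r3, drawn to scale by distance from the Tas1r3 start site in base pairs, in the direction of Tas1r3 transcription. Boxes are exons, taller boxes in Tas1r3 are coding, and Cptp runs with Tas1r3 while Dvl1 runs against it. The longer 3′ end of Dvl1 covers all exons of Tas1r3 but its last bases, and the canonical Dvl1 transcript ends just inside its far end.

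Values of the genes beside Tas1r3 are given because they share its surroundings, and they were added after they were seen. Dvl1 had 845 and 722 estimated counts in WT WD against 680 and 741 in Tas1r3-/- WD, a log2 fold change of -0.14 (standard error 0.17, and -0.28 without WT WD replicate 2), and its groups overlapped. Cptp, which encodes a ceramide-1-phosphate transfer protein, ends 1356 bases upstream of the Tas1r3 start on the same strand. Its counts were 66 and 71 in WT WD against 266 and 240 in Tas1r3-/- WD. The difference of Cptp on the log2 scale was 1.88 ± 0.16 (standard error), with an unadjusted p of 7.87e-05 and an adjusted p of 0.748 by edgeR. Mxra8, the next gene beyond Dvl1, had 109 and 106 counts in WT WD against 72.3 and 71 in Tas1r3-/- WD, a log2 difference of -0.59 (standard error 0.19), and an adjusted p of 0.748 by edgeR. The groups of Cptp and of Mxra8 did not overlap, on the higher and the lower side. Of all genes tested, 20.6% lay higher and 18.9% lower without overlap. Without WT WD replicate 2 the log2 differences of Cptp and Mxra8 were 1.90 and -0.64.

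Tas1r1, the subunit that completes the umami receptor, lies 3.82 Mb from Tas1r3 on the same strand of chromosome 4, from 152112371 to 152123733. Its estimated counts were 49 and 29 in WT WD against 42 and 41 in Tas1r3-/- WD. Both libraries of Tas1r3-/- WD lay between the WT WD libraries, of which replicate 2 was the lower. In CPM these were 8.42 and 4.78 against 6.75 and 7.19, with means of 6.6 ± 2.57 and 6.97 ± 0.312 (SD, n = 2). The log2 fold change was 0.08 (standard error 0.36, 95% interval -0.84 to 1.00, edgeR adjusted p = 0.958), an interval that holds changes of 0.559-fold to 2-fold. Leaving out WT WD replicate 2 turned the sign, to -0.27, and leaving out replicate 1 of that group gave 0.55. The transcript of Tas1r1 shares no 31-base word with another gene, in contrast to that of Tas1r3. Its neighbours lie close, with Nol9 34 bases from its start on the opposite strand and Zbtb48 163 bases beyond its end.

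The third receptor subunit, Tas1r2, which completes the sweet receptor, had no row in the table. The same held for Gnat3, the taste G protein alpha subunit gustducin, and for Trpm5, the channel that acts beside TRPM4. Every row of the table sums to at least 10 estimated counts over the 4 libraries, and no limit on the level of a gene without a row can be read from it.

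Gng13, the gamma subunit of the taste G protein, had 53.8 and 77 estimated counts in WT WD against 64 and 65 in Tas1r3-/- WD. Again both Tas1r3-/- WD libraries lay between the WT WD libraries, here with replicate 2 the higher. In CPM they were 9.24 and 12.7 in WT WD against 10.3 and 11.4 in Tas1r3-/- WD, with means of 11 ± 2.44 and 10.8 ± 0.786 (SD, n = 2). The log2 fold change was -0.02 (standard error 0.25, 95% interval -0.68 to 0.63, edgeR adjusted p = 0.986), which holds changes of 0.626-fold to 1.55-fold. It was 0.22 without WT WD replicate 2, 0.05 without Tas1r3-/- WD replicate 1, and -0.22 when replicate 1 of WT WD was left out.

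The Gng13 counts were split by the authors between 2 RefSeq transcripts that can share reads, so the split is an estimate. NM_001357782 took 53.7 and 69.7 estimated counts in WT WD against 64 and 40.9 in Tas1r3-/- WD. NM_022422 took 0.0798 and 7.3 in WT WD against 0.0364 and 24.1 in Tas1r3-/- WD, so it was near 0 in replicate 1 of both groups and above 0 in replicate 2 of both. The sum of the transcripts varied less than either. Of the 31-base words of Gng13, 53% also occur in Chtf18 on the opposite strand, and the stretch printed above lies in that overlap. In the RefSeq table used for gene names, the spans of Gng13 and Chtf18 overlap by only 73 bases. Chtf18, a subunit of a complex that loads the replication clamp, had 12 and 10 counts in WT WD against 15.2 and 7.03 in Tas1r3-/- WD, fewer than Gng13 in every library.

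Plcb2, the phospholipase that the beta-gamma dimer activates, lies on the minus strand of chromosome 2 from 118537979 to 118559111. It had the lowest counts of the 6 genes in WT WD, with 16 and 10, and 26 and 16 in Tas1r3-/- WD. In CPM these were 2.75 and 1.65 in WT WD against 4.18 and 2.81 in Tas1r3-/- WD, so the groups were separated only by the step from 2.75 to 2.81. The means were 2.2 ± 0.778 and 3.49 ± 0.971 CPM (SD, n = 2). The log2 fold change was 0.67 (standard error 0.47, 95% interval -0.54 to 1.88), with an unadjusted p of 0.211 and an adjusted p of 0.752 by edgeR. The summed counts of Tas1r3-/- WD were 162% of those of WT WD, with a counting interval of 97.2% to 276%. Without WT WD replicate 2 the log2 fold change was 0.35, and the values with each library left out ran from 0.35 to 1.09.

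Plcb2 also had 2 listed transcripts. NM_001290790 took 10.6 and 0 estimated counts in WT WD against 17.2 and 0.55 in Tas1r3-/- WD. NM_177568 took 5.45 and 10 in WT WD against 8.85 and 15.4 in Tas1r3-/- WD. The first transcript carried most counts in replicate 1 of each group and the second in replicate 2, and the second transcript of Gng13 was likewise higher in replicate 2 of each group. Taken alone, NM_001290790 had a log2 fold change of 0.67 with a standard error of 1.5, wider than that of the gene.

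Itpr3, the IP3 receptor of taste cells, lies on the plus strand of chromosome 17 from 27275971 to 27343866, 1.34 Mb from Gng13. Its estimated counts were 55.7 and 60 in WT WD against 75.1 and 51.8 in Tas1r3-/- WD. Here the WT WD libraries were close together and lay between the Tas1r3-/- WD libraries. In CPM they were 9.57 and 9.89 against 12.1 and 9.09, with means of 9.73 ± 0.221 and 10.6 ± 2.1 (SD, n = 2). On the log2 scale the fold change was 0.12 (standard error 0.25, 95% interval -0.51 to 0.75, edgeR adjusted p = 0.905), which holds changes of 0.7-fold to 1.69-fold. It was 0.14 without WT WD replicate 2 and turned to -0.10 without Tas1r3-/- WD replicate 1, the library with pituitary markers.

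Trpm4, a calcium-activated channel for monovalent cations, lies on the minus strand of chromosome 7 from 44949126 to 44983986. Its estimated counts were 71 and 107 in WT WD against 52.9 and 84 in Tas1r3-/- WD. In CPM these were 12.2 and 17.6 in WT WD against 8.5 and 14.7 in Tas1r3-/- WD, so that the groups overlapped and replicate 2 was the higher in both. The means were 14.9 ± 3.8 and 11.6 ± 4.41 CPM (SD, n = 2). On the log2 scale the fold change was -0.36 (standard error 0.35, 95% interval -1.28 to 0.55, edgeR adjusted p = 0.793), which holds changes of 0.412-fold to 1.47-fold. Counting error alone put the ratio of summed counts at 77.4% (61.4% to 97.1%), an interval that leaves out the spread between libraries. Without WT WD replicate 2 the log2 fold change was -0.08, and with a library left out it ran from -0.81 to -0.02.

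Levels of different genes were compared per kilobase of the longest annotated transcript. In WT WD, Gng13 was highest, at 10.9 ± 2.42 CPM per kb (SD, n = 2). Tas1r1 followed at 1.87 ± 0.728, Trpm4 at 1.84 ± 0.47 and Tas1r3 at 1.49 ± 0.325 CPM per kb, and the libraries of each of these neighbours overlapped those of the next. Itpr3 was at 0.813 ± 0.0185 and Plcb2 at 0.41 ± 0.145 CPM per kb, without overlap between neighbours from Tas1r3 down. In Tas1r3-/- WD the first 3 kept their places, and Tas1r3 was last at 0.334 ± 0.0209 CPM per kb, below Plcb2 at 0.652 ± 0.181. With canonical transcript lengths, chosen after the data were seen, Trpm4 at 2.97 ± 0.757 and Tas1r1 at 2.3 ± 0.899 CPM per kb changed places in WT WD. Before division by length, the mean CPM of Tas1r3 over all 4 libraries was above that of 7.72% of the genes tested, and that of Trpm4, the highest of the 6, above 30%. In bulk tissue, fewer cells that express a gene and less RNA per cell cannot be told apart.

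**Figure D4:**
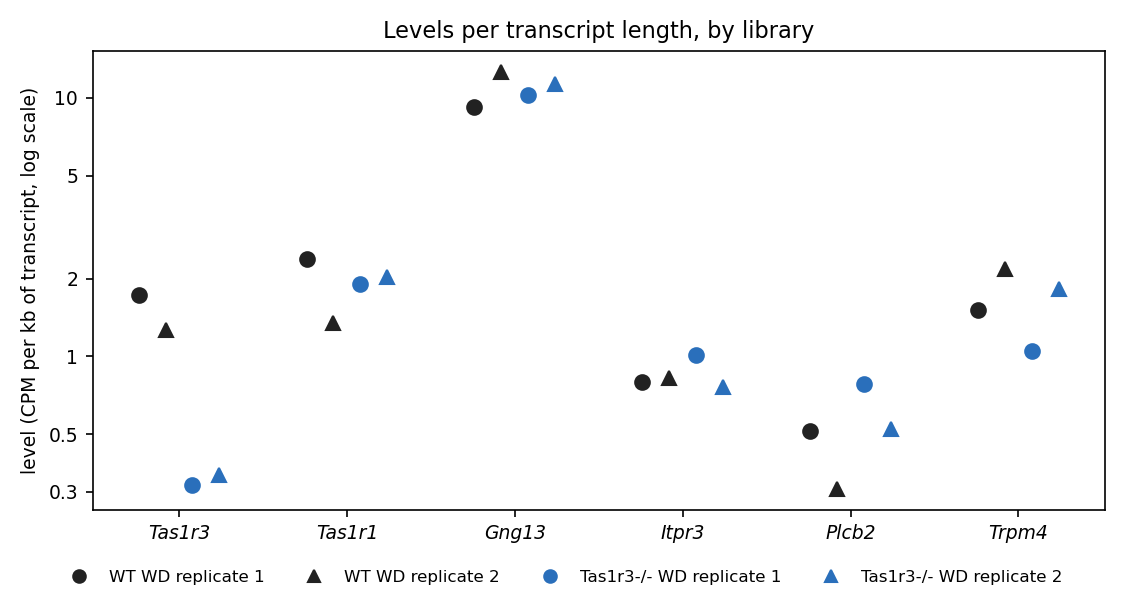
Level of each gene in CPM per kilobase of its longest transcript (vertical axis, log scale) in each library, with colours and symbols for group and replicate. Gng13 is at 9.19 to 12.6 CPM per kb in all 4 libraries, and Tas1r3 is at 1.26 to 1.72 in WT WD and at 0.319 to 0.349 in Tas1r3-/- WD.

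The rest of the pathway was read from a list of 14 other taste transduction genes, of which 7 had a row and 5 enough counts to be tested. None of the 5 passed the test in either direction, and in none did the groups separate, which they did for 18.9% of all genes downwards and 20.6% upwards. The median log2 fold change of the list was 0.000819. The 3 with the highest CPM were Gnb1, a G protein beta subunit of many tissues, Pde1a, a calmodulin-dependent phosphodiesterase, and Entpd2, an ectonucleotidase. Gnb1 was at 478 and 749 CPM in WT WD against 463 and 537 in Tas1r3-/- WD. Pde1a was at 56.1 and 39.8 in WT WD against 55.6 and 49.3 CPM in Tas1r3-/- WD. Entpd2 was at 38 and 25 in WT WD against 31.5 and 35.2 CPM in Tas1r3-/- WD. For each of the 3, WT WD replicate 2 lay outside the range of the other libraries. The 7 without a row were Tas1r2, Gnat3, Trpm5, the ATP release channels Calhm1 and Calhm3, Rgs21 and the taste and tuft cell factor Pou2f3, and all 35 bitter receptor genes (Tas2r) were also without one. Of 7 markers of tuft or chemosensory cells, Pou2f3, Trpm5, Gfi1b and Gnat3 had no row, and the 3 listed summed to 3.78 and 6.26 CPM in WT WD and to 4.38 in each Tas1r3-/- WD library.

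The families of the effector genes were listed beside them. All 5 other phospholipase C beta and IP3 receptor genes were tested, with 0 passing and a median log2 fold change of 0.05. Of these, 1 (Itpr2, named after its values were seen) was without overlap, on the higher side, where 20.6% of all genes tested lay. That count is not read as a result about the family. Itpr1, the main IP3 receptor of neurons, was at 163 and 318 CPM in WT WD against 185 and 198 CPM in Tas1r3-/- WD. Plcb4 was at 100 and 261 CPM in WT WD against 101 and 121 CPM in Tas1r3-/- WD. Both were highest in the library labelled WT WD replicate 2. Plcb1 was at 83.5 and 63 CPM in WT WD against 80.3 and 77 CPM in Tas1r3-/- WD.

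Of 7 Trpm genes, 4 were tested, with 0 passing and a median of -0.08. Trpm3 was at 125 and 162 CPM in WT WD against 153 and 152 in Tas1r3-/- WD, Trpm2 at 56 and 74.1 against 59.3 and 50.3 CPM, and Trpm7 at 34.9 and 40.2 against 40.6 and 40.5 CPM. Both Tas1r3-/- WD values of Trpm7 lay above both WT WD values, by less than the WT WD libraries differed. Such an order was found for 20.6% of all genes tested. Of 11 other G protein gamma genes, 9 were tested, with 0 passing after adjustment and a median of 0.06. Gng3 was at 304 and 370 CPM in WT WD against 221 and 271 in Tas1r3-/- WD, with an unadjusted p of 0.0488 and an adjusted p of 0.748 by edgeR. Gng2 was at 217 and 168 against 189 and 213 CPM, and Gng4 at 138 and 27.2 against 115 and 91.5 CPM, with its low value in WT WD replicate 2. Gng8 was named after its values were seen, because it was the other of 2 gamma genes with an unadjusted p under 0.05 by edgeR. It was at 2.4 and 36.6 CPM in WT WD against 1.61 and 0.877 in Tas1r3-/- WD. Its high value was in WT WD replicate 2, the library with few hypothalamic and many thalamic markers. Gng3 and Gng8 both lay on the lower side without overlap. Among all genes tested, 1.96% had such a p on that side, and 18.9% lay there without overlap. The Gng8 difference rests on that 1 library, so the count of 2 is not read as a result about the family.

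**Figure D5:**
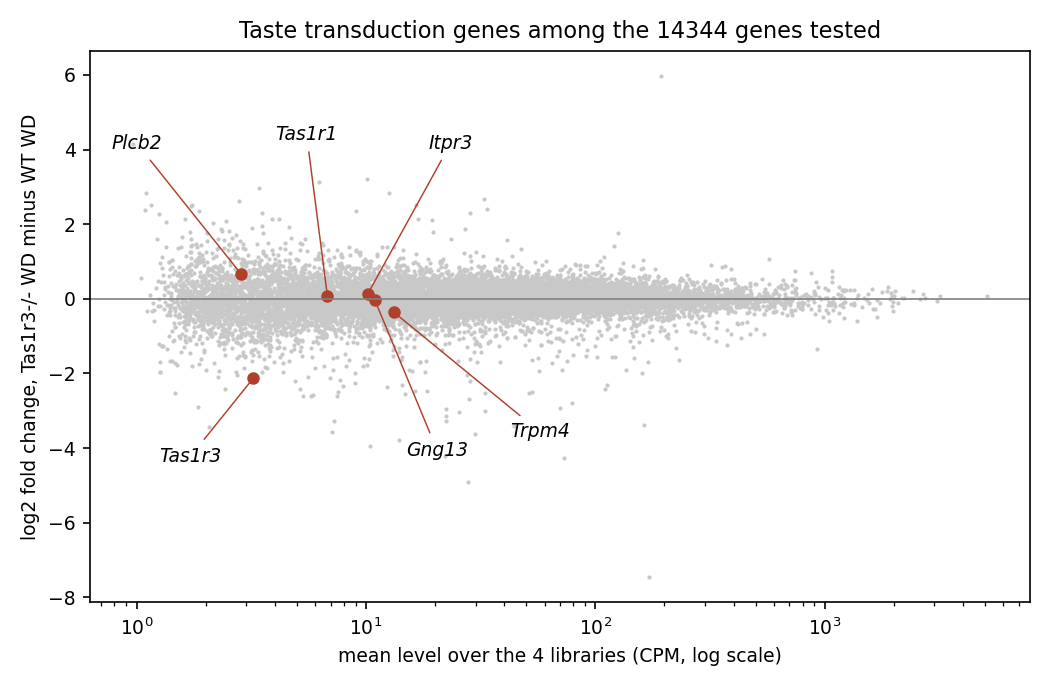
Log2 fold change (vertical axis, Tas1r3-/- WD minus WT WD) against mean level in CPM (horizontal axis, log scale) for the 14344 genes tested (grey points), with the taste transduction genes in red. Tas1r3 lies at -2.13 at the lower edge of genes of its level, and the other 5 lie between -0.36 and 0.67 inside the cloud.

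The genes whose pattern over the 4 libraries was most like that of each taste gene were named by the smallest root mean square difference of centred log2 CPM, among 14342 genes. For Tas1r3, the nearest was Ttc34 (difference 0.286), at 16.3 and 15.2 CPM in WT WD against 5.69 and 3.44 in Tas1r3-/- WD. Ttc34 lies 0.992 Mb from Tas1r3 on chromosome 4, from 154921916 to 154951584. The next were 4930577N17Rik (0.295), Pcsk2os1 (0.32), Gm38882 (0.32) and Gm16104 (0.324), each on another chromosome. None was a DEG by edgeR, with an adjusted p of 0.748 for all 5.

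For the other taste genes the nearest patterns were closer. The nearest to Tas1r1 were Tmem145 (0.00847) and Spred3 (0.0113), and to Gng13 Ppp1cb (0.00911) and Dclk2 (0.00949). Itpr3 was nearest to Zzz3 (0.0171) and Ighmbp2 (0.0193), Plcb2 to Abca9 (0.035) and Apobec3 (0.0409), and Trpm4 to Tigd3 (0.0179) and Reep4 (0.0315). With 4 libraries and this many candidates, a close match describes the shape only.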

How the data were processed

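Per the labels and the study's methods, poly(A) RNA depleted of ribosomal RNA was made into Ion Torrent libraries, and the authors used STAR in Partek Flow to align them to mm39. They deposited expected counts, that is, estimated counts per RefSeq transcript (release 93), without normalization, for 2 libraries a group, fewer than the mice the methods name. Of the values, 13% were whole. The design assumed counts per gene, so the 30891 of 30930 transcripts that an accession table named were added up into 16339 genes, then rounded. The remaining 39 held 0.347% to 2.49% of the counts.

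Genes were tested with edgeR 4.0.16 in R 4.3.3 (TMM, filterByExpr, quasi-likelihood test, Benjamini-Hochberg adjustment), on 14344 genes. The 95% intervals use the standard error and the test's degrees of freedom. Alternatives used DESeq2 1.42.0, which the methods name, limma 3.58.1, other scalings and filters, a replicate block, single transcripts and each library left out. The fits were checked on simulated data. Poisson intervals are exact and cover counting error only. Positions and shared 31-base words come from GENCODE M39 on GRCm39, the authors' build. Primer sequences were matched to that annotation.

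The members, lists and tests were chosen with earlier results of these data known. Named genes were the members, the 3 highest by CPM of each list, the 5 patterns nearest to Tas1r3 and the 2 nearest to each other member, and neighbouring or overlapping genes. A gene that this rule names is not reported here. Lists covered the taste pathway, bitter receptors, the effector families, other nutrient sensors and markers of cell types and brain regions. Plots used matplotlib 3.10.9 (Python 3.11.15).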

Additional observations from a re-analysis of the deposited data

How the results depend on the processing

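The count of 0 DEGs changed to 8 with DESeq2 and to 786 at an unadjusted p under 0.05, and with a library left out it ran from 0 to 2148 (23 when WT WD replicate 2 was left out, and 2148 when replicate 1 was). Of the 6 taste genes, the count of DEGs ran from 0 to 1 with a library left out and was 1 at an unadjusted p, each time Tas1r3. A left-out library leaves 1 library in a group, which is assumed to vary like the others. With a library left out, the log2 fold change ran from -2.34 to -1.90 for Tas1r3, -0.27 to 0.55 for Tas1r1, -0.22 to 0.22 for Gng13 and -0.10 to 0.30 for Itpr3. The signs of Tas1r1 (-0.27 without WT WD replicate 2), Gng13 (0.22 without WT WD replicate 2, 0.05 without Tas1r3-/- WD replicate 1) and Itpr3 (-0.10 without Tas1r3-/- WD replicate 1) turned. The median log2 fold change ran from -0.06 to 0.03 for the 6 genes (negative without WT WD replicate 1, -0.06, or Tas1r3-/- WD replicate 2, -0.04), -0.33 to 0.06 for the other taste transduction genes, -0.07 to 0.13 for the phospholipase C beta and IP3 receptor paralogs, -0.25 to 0.09 for the Trpm paralogs, -0.11 to 0.27 for the gamma subunit genes and -0.30 to -0.06 for the nutrient sensors. The median turned sign for the other taste transduction genes (-0.33 without WT WD replicate 1, -0.01 without Tas1r3-/- WD replicate 2 and -0.01 with RLE size factors), the phospholipase list (-0.07 without Tas1r3-/- WD replicate 1), the Trpm paralogs (0.09 without WT WD replicate 2) and the gamma subunit genes (-0.11 without WT WD replicate 2, -0.03 without Tas1r3-/- WD replicate 2). Plcb2 and Trpm4 kept their sign. Under at least 10 counts in every library Tas1r3 was not tested. The labels do not say whether the replicate numbers pair libraries. The correlation between deviations of same-numbered libraries was 0.0821, and with 2 pairs it cannot decide this. With the replicate block the log2 fold change of Tas1r3 was -2.13 (edgeR adjusted p = 0.788) with 0 DEGs. The smallest adjusted p of any gene in that edgeR fit was 0.0565. With canonical transcript lengths, chosen after the data were seen, 2 genes changed place in the order of levels in WT WD. Lengths of the counted RefSeq transcripts were not used here, so the longest annotated transcript stood for them. The causes were not tested. Depth limits Tas1r3 and Plcb2 most, with 7 to 35.3 and 10 to 26 counts a library.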

Other observations

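A list of 13 other nutrient sensing genes was read beside the taste genes. Of these, 8 had a row and were tested, with 0 passing by edgeR in either direction and a median log2 fold change of -0.27. The groups did not overlap for 2 lower and 1 higher of the 8, beside 18.9% and 20.6% of all genes tested. The 5 without a row were the amino acid receptor Gprc6a, the fatty acid receptors Ffar1 and Ffar4, and the glucose carriers Slc5a1 and Slc2a2. Grm4, a metabotropic glutamate receptor, was at 40.2 and 150 CPM in WT WD against 38.7 and 51.4 CPM in Tas1r3-/- WD. Its highest value was in the library labelled WT WD replicate 2, the one with few hypothalamic and many thalamic markers. Abcc8, the sulfonylurea receptor of the ATP-sensitive potassium channel, was at 30.3 and 35.7 CPM in WT WD against 26.4 and 27.9 CPM in Tas1r3-/- WD, and its groups did not overlap, with an edgeR adjusted p of 0.748.

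Markers of other cell types were summed in the same way. Over the whole list, 5 microglial markers were at 220 to 253 CPM, 5 endothelial markers at 189 to 224 CPM, 4 mural cell markers at 123 to 170 CPM, 4 oligodendrocyte markers at 3881 to 4801 CPM and 4 astrocyte markers at 1136 to 1488 CPM. The 4 ependymal markers summed to 127 CPM in WT WD replicate 2 and to 53.8 to 68.8 CPM in the other libraries. The 5 striatal markers summed to 156 CPM in Tas1r3-/- WD replicate 1 and to 79.4 to 97.2 CPM in the others. The 5 listed cortical and hippocampal markers summed to 276 CPM in WT WD replicate 2 and to 15.4 to 23.9 CPM elsewhere, and the 4 listed leukocyte markers to 3.79 to 6.7 CPM. The part of these differences in the values of the taste genes was not tested.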
